A study of Drosophila melanogaster with 3 samples.

Results

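Sites bound by the zinc finger protein pad were examined at genes that encode BTB domain transcription factors: Trl, psq, lola, ttk, bab1, bab2, ab, rib and chinmo, 9 of 13945 protein-coding genes on the assembled arms. The genes were chosen by measured values of the same peak lists, namely the peak summits in each gene or within 5 kb of it, merged into intervals, and the rank of those peaks by signal. Their counts, densities and ranks are therefore given as a description, with no test. Together they held 68 summits in 44 merged intervals of the list that passed the irreproducible discovery rate (IDR), a filter on how well peak ranks repeat between replicates. At least 1 such summit was found for 8 of the 9 genes, and ab had none. Ranks run from 1 for the strongest peak of a list, and the rank of a summit in a replicate is that of the replicate's summit within 100 bp, a match chosen after seeing the data.

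Chromatin immunoprecipitation with sequencing (ChIP-seq) was carried out with an anti-GFP antibody on whole adult females of a transgenic Drosophila melanogaster line that stably expresses pad with GFP at its C terminus. The 3 biological replicates form 1 group of unknown age, with no second genotype or treatment, and each was called against a control alignment. Whole flies mix all tissues, so a peak does not show in which cells the protein was bound, and the peak lists hold no expression values against which the labelled tissue could be checked. Read depth is unknown, and the spread between replicates may be technical where the labels say no more than biological replicate. The IDR list held 6659 peaks in 5579 merged intervals. These were the top 6659 peaks of the pooled list, and not every one had a summit within 100 bp in each replicate. The pooled list and each replicate list held 30000 peaks that include background regions.

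The BTB domain is a protein interaction domain through which these factors form dimers and larger complexes, and a separate DNA-binding domain, in most of them zinc fingers, reads the sequence. Trl encodes GAGA factor, which binds GA repeats and helps to keep promoters free of nucleosomes, as at the heat shock genes, and psq encodes Pipsqueak, which binds the same kind of repeat. The other members are known as regulators of cell fate and shape: lola in axon guidance, ttk as a repressor of neuronal fate, bab1 and bab2 in limb, ovary and pigment patterning, ab in muscle innervation and dendrite shape, rib in the formation of epithelial tubes, and chinmo in the timing of neuron identity.

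The sequences at the strongest IDR summit of 5 members, and at the summits of Trl and ttk with the most copies of GAGAG, are shown because summits of Trl and ttk held this core of the GAGA factor site and those of bab1, bab2 and chinmo did not. Summits of psq, lola and rib also held GAGAG, but their sequences are not shown. Each sequence shown is the dm6 plus strand, 5′ to 3′, from 50 bp before to 50 bp after the summit. All were read from the RefSeq Release 6 assembly. Capitals mark GAGAG or its reverse complement CTCTC, and overlapping copies run together.
Trl strongest summit, 3L:14759180-14759280: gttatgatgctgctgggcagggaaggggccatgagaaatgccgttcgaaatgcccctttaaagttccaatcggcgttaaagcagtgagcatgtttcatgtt
Trl summit with the most copies, 3L:14756491-14756591: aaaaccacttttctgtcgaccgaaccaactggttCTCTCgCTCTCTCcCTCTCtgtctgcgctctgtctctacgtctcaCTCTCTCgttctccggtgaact
ttk strongest summit, 3R:31725615-31725715: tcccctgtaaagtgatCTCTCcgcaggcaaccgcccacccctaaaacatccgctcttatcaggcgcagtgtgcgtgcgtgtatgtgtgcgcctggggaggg
ttk summit with the most copies, 3R:31711912-31712012: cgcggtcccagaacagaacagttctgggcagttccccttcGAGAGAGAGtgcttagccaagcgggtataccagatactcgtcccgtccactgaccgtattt
bab1 strongest summit, 3L:1102714-1102814: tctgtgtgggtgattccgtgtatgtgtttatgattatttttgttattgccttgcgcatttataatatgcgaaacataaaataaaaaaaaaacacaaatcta
bab2 strongest summit, 3L:1178222-1178322: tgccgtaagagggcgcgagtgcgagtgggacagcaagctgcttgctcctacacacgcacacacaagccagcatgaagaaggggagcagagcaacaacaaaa
chinmo strongest summit, 2L:1649642-1649742: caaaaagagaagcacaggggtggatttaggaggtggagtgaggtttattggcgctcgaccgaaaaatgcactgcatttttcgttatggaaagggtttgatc
The strongest Trl summit held no copy and the other Trl summit shown held 6. The strongest ttk summit held 1 copy and the other held 3. The bab1 window was the poorest in G and C of the 7, at 28.7%, while the bab2 window stood at 56.4%. The bab1, bab2 and chinmo windows held no copy.

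Counts of intervals differed widely among the 9 genes. Psq had 18, lola 9, ttk and bab1 5 each, bab2, rib and chinmo 2 each, Trl 1 and ab 0. At least 1 IDR summit was found for 8 of 9 members, where the background was 57.9% of all coding genes and 69.4% of the 1013 coding genes that span at least 20 kb. At least 5 intervals were found for 4 of 9 members, where the background was 2.19% of all coding genes and 14.6% of the long ones. That count was 3 in the strongest 6659 peaks of each replicate, 2 with flanks of 1 kb and 0 among the 1000 strongest IDR peaks. The members' median span was 50.4 kb against 2.17 kb for all coding genes, and a longer gene offers more room for intervals. Trl and rib, at 13.1 and 11.3 kb, are shorter than 20 kb, and of the 7 members that are not, 6 had a summit and 4 had at least 5 intervals. Per 10 kb of gene and flanks, the members' median was 0.669 intervals, against 0.645 over all coding genes and 0.282 over the long ones, and 0.669 over the 7 long members.

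**Figure D1:**
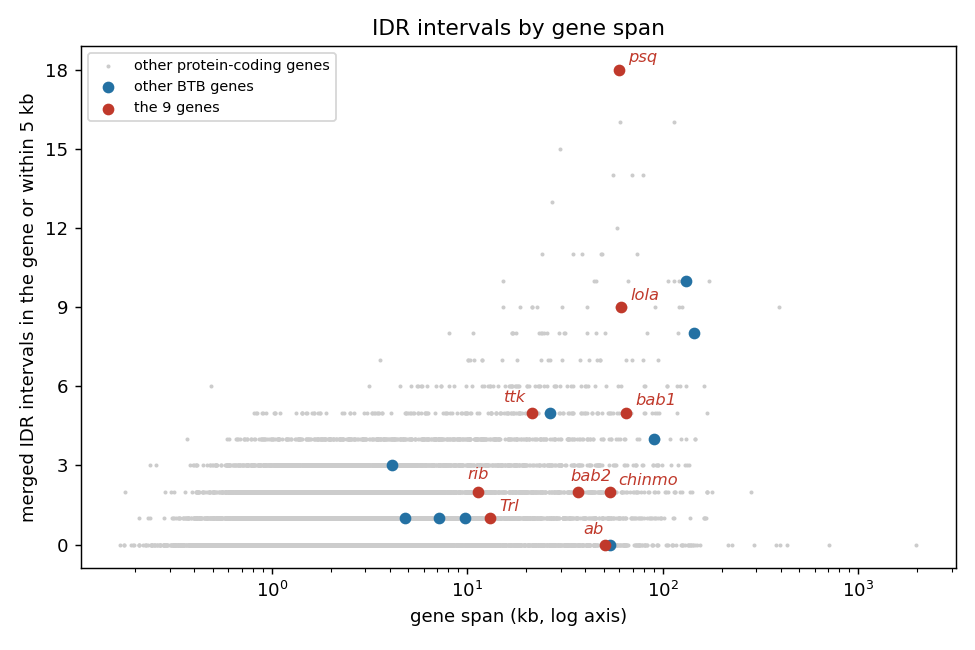
Each point is a protein-coding gene, with its span in kb on a log axis and the merged IDR intervals in the gene or within 5 kb on the vertical axis. Psq stands highest of all coding genes with 18 intervals, while Trl, with 1 interval, and ab, with 0, lie at the bottom of the plot.

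Psq (FBgn0263102, 2R:10557888-10617280, plus strand) encodes a GAGA-binding BTB factor and had more merged IDR intervals than any other of the 13945 coding genes, at 18, and also the most summits, at 24. The genes next in order were Eip74EF and Eip75B, which encode ecdysone-response factors, with 16 each, then the transcription factor genes Mnt with 15 and Pdp1 with 14. Among the strongest 6659 peaks of each replicate, psq had 17 intervals in replicate 1, 18 in replicate 2 and 16 in replicate 3. The 3 lists thus gave nearly the same count, and psq was first in each, level with 1 other gene in replicate 1. By density psq came lower, at 2.59 intervals per 10 kb, which is rank 642 among all coding genes and rank 7 among the long ones. Among the 1000 strongest IDR peaks psq had 3 intervals and rank 8, a place it held level with other genes.

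Of the 24 psq summits, 19 lay inside the gene, 3 upstream and 2 downstream, in an intron of the neighbouring gene CG11883. Summits lay within 250 bp of 4 of its 5 annotated start sites, at 99, 50, 55 and 144 bp, and 500 bp from the fifth. The promoter summits were not the strongest ones. Those 50 and 55 bp from internal start sites ranked 2396 and 2400 in the IDR list, and one 232 bp from an internal start site ranked 4133. The summit 99 bp from the most upstream start site ranked 3930 and the one 144 bp from the most downstream start site ranked 6557. The strongest psq summit, at 2R:10566647, lay in an intron 2295 bp upstream of an internal start site, with rank 144 and a signal of 5719, the authors' unit of peak strength. In the replicates it ranked 164, 151 and 140 (152 ± 12.0, SD, n = 3). The second strongest, at 2R:10604273, ranked 295 and lay in an intron 20587 bp from the nearest psq start site, with replicate ranks of 380, 299 and 232. Another strong summit, at 2R:10558937, lay 1049 bp inside the gene, with IDR rank 439 and replicate ranks of 452, 420 and 542.

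Trl (FBgn0013263, 3L:14747929-14761049, minus strand), the gene of GAGA factor itself, had 1 merged interval, 3L:14754865-14760588. At 5724 bp it was the widest of the 5579 IDR intervals but for that of 7481 bp on 2L, and its 10 summits were the most of any interval. By summits rather than intervals Trl had rank 40 among all coding genes, since merging joins its overlapping peaks into 1 interval. In the IDR list the 10 summits belonged to 2 peak spans of at most 2960 bp. In replicate 2 all 9 summits there shared 1 span of 5839 bp, whereas replicates 1 and 3 each split 9 summits among 6 spans. Among the strongest 6659 peaks the merged count in the gene and its flanks was 5, 2 and 4 in replicates 1, 2 and 3.

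The strongest Trl summit, at 3L:14759230, lay in an intron of Trl, 1268 bp upstream of the start site that 7 Trl transcripts use and that CG42507 shares. Its rank was 83 in the IDR list, with a signal of 8504, and 125, 64 and 112 in the replicates (100 ± 32.1, SD, n = 3). A second strong summit, at 3L:14755499, ranked 396 in the IDR list and 863, 304 and 484 in the replicates. The 2 Trl promoter summits were weaker than both: the one 94 bp inside the most downstream start site ranked 1474, with 1084, 1614 and 1457 in the replicates, and the one 178 bp upstream of the shared start site ranked 1333, with 1738, 1207 and 1893. In each replicate the 3L:14759230 summit ranked ahead of both promoter summits. Of the 10 summits, 7 had a summit within 100 bp in all 3 replicates.

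**Figure D2:**
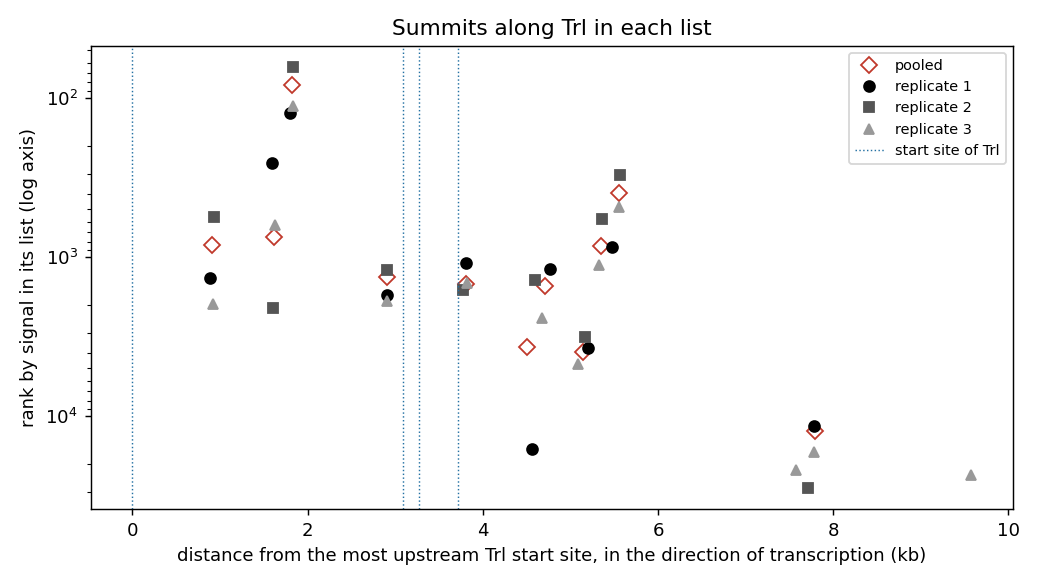
Summits along Trl are plotted by their distance from the most upstream start site in kb and by their rank in the pooled list and each replicate list, on an inverted log axis so that strong peaks stand high. In the pooled list the strongest summit lies 1.82 kb downstream of the most upstream start site, and in each replicate the strongest summit is the one within 100 bp of it, with ranks of 125, 64 and 112.

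Lola (FBgn0283521, 2R:10481894-10543291, minus strand), whose transcripts share 5′ exons and differ in their 3′ exons, had 9 intervals and 16 summits, and had rank 9 among all coding genes by summits. Its intervals fell in the first 12.5 kb of the gene or in the flanks. From the gene's 3′ end at 2R:10481894 to 2R:10530746, a stretch of 48.9 kb, no IDR summit was found. The pooled list held 24 summits there and the replicate lists held 23, 27 and 19. These lists include background regions, so such summits do not show that peaks are present. IDR summits lay 61 to 347 bp from all 4 lola start sites, and within 250 bp of 2 of them. At the most upstream start site, the summit 183 bp upstream ranked 163, with replicate ranks of 312, 129 and 219. At the start site used by 3 transcripts, the summit 61 bp upstream ranked 283, with replicate ranks of 760, 236 and 292, and belonged to an interval of 2325 bp with 5 summits, which has rank 21 by width.

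The strongest lola summit in the IDR list was not at lola itself. It lay at 2R:10477964, 3′ of the gene and 79 bp from the start site of asRNA:CR45134, with rank 121, a signal of 6388 and replicate ranks of 203 in replicate 1 and 147 in replicate 3 (150 ± 51.1 over the 3 replicates, SD). An intron summit at 2R:10530746 ranked 128, with replicate ranks of 236, 120 and 99, and so was ahead of the former in replicate 3 only. Another summit in the 3′ flank lay 7 bp from the start site of Pef, and 2 weak intervals in the 5′ flank lay in an exon of lncRNA:acal. In all, 4 of the 9 intervals were nearest to a start site of lola itself.

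Ttk (FBgn0003870, 3R:31713867-31735392, plus strand), a repressor of neuronal fate, had 5 intervals and 7 summits, all nearest its own start sites. Its strongest summit, at 3R:31725665, lay 115 bp upstream of an internal start site, with rank 607, a signal of 2020 and replicate ranks of 837, 548 and 635 (673 ± 148, SD, n = 3). An intron summit 1800 bp inside the gene ranked 890, with replicate ranks of 1504, 722 and 1138. The remaining summits ranked between 2602 and 5154. All 7 summits had one within 100 bp in each replicate, and 2 of the 4 start sites had a summit within 250 bp.

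Bab1 and bab2 are neighbouring paralogues on 3L, both on the minus strand, with 1 annotated start site each. Neither start site had an IDR summit within 250 bp, and for each gene the strongest summit lay upstream of it. For bab2 (FBgn0025525, 3L:1140429-1177276) this summit lay 996 bp upstream, with rank 213, a signal of 4419 and replicate ranks of 144, 281 and 155 (193 ± 76.1, SD, n = 3). For bab1 (FBgn0004870, 3L:1036369-1101089) it lay 1675 bp upstream, with rank 1526, a signal of 973 and replicate ranks of 1550, 2127 and 954 (1544 ± 587, SD, n = 3). The bab2 summit thus ranked ahead of the bab1 summit in all 3 replicates. By number the order was the other way, with 5 intervals at bab1 and 2 at bab2, but 2 of the 5 lay in the 3′ flank nearest CG9205, 1 of them 33 bp from its start site. The other bab1 intervals lay in introns, 14.6 and 17.6 kb from the start site, and the other bab2 interval lay in an intron 10786 bp from it.

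Rib (FBgn0003254, 2R:19270078-19281396, plus strand), which acts in tube formation, had 2 intervals but the strongest peak of the 9 genes. It lay at 2R:19275597, 135 bp upstream of an internal start site used by 2 of 3 transcripts, with rank 65, a signal of 10195 and replicate ranks of 28, 109 and 50 (62.3 ± 41.9, SD, n = 3). The other rib summit lay 1129 bp upstream of the gene, with rank 1602.

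Chinmo and ab, both on 2L, were the weakest of the 9. Chinmo (FBgn0086758, 2L:1651258-1704682, plus strand) had 2 summits, 1566 and 1367 bp upstream, and none inside its 53.4 kb. The stronger of them ranked 2914, with a signal of 567 and replicate ranks of 1966, 3340 and 4451 (3252 ± 1245, SD, n = 3). Within chinmo the pooled list held 12 summits that did not pass IDR, but that list includes background regions, so these do not show that peaks are present. Ab (FBgn0264442, 2L:11210678-11261080, plus strand) had no IDR summit in the gene or within 5 kb. Its best pooled peak ranked 7736, beyond the last IDR rank of 6659, and its best replicate ranks were 4414, 10657 and 11996. The nearest IDR summit lay 6893 bp upstream of ab and 241 bp from the start site of Ca-beta, with rank 5617.

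The IDR list ended at rank 6659, and members lay on both sides of that limit. Just inside it, a bab1 intron summit ranked 6647 and a lola summit 6648, each with a signal of 264. Just outside it, a summit in the Trl flank, 94 bp from the start site of Mgat4a, ranked 6914 with a signal of 254, and a psq summit ranked 7140.

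**Figure D3:**
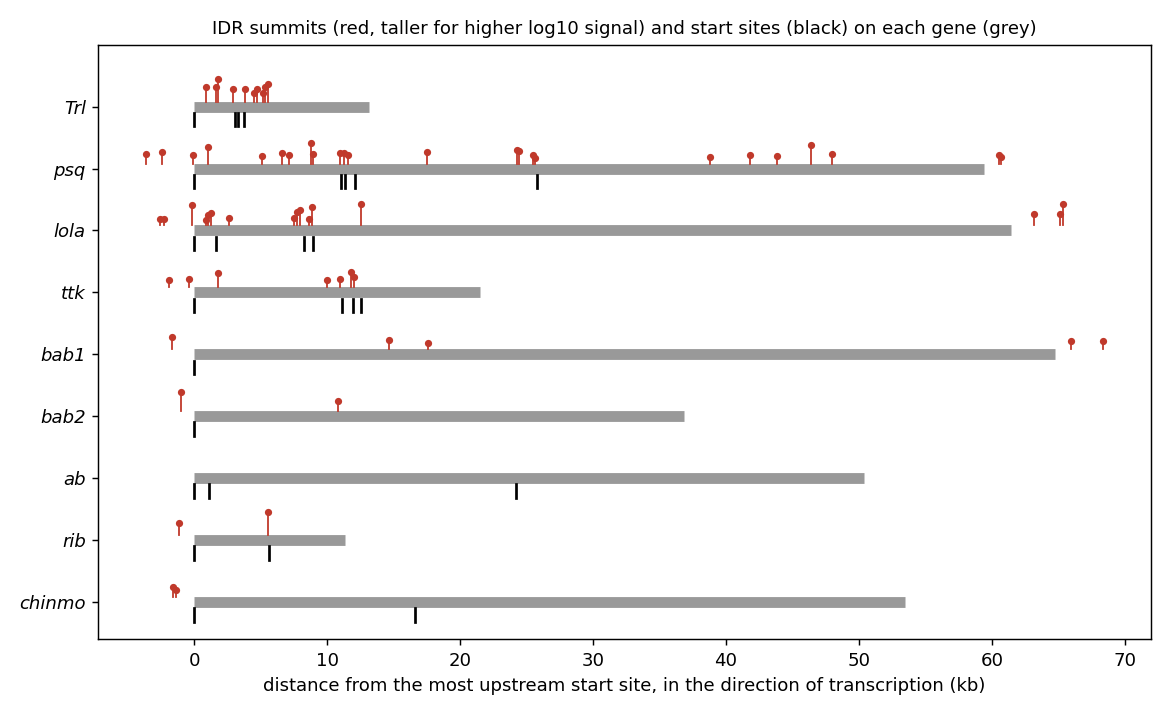
Each gene is a grey bar drawn in the direction of transcription, with distance in kb from its most upstream start site, start sites as black ticks below, and IDR summits as red pins above, taller for a higher log10 signal. Summits are spread along psq, lie in or before the first 12.0 kb of ttk, leave the last 48.9 kb of lola without one, lie only upstream at chinmo, and are missing at ab.

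**Figure D4:**
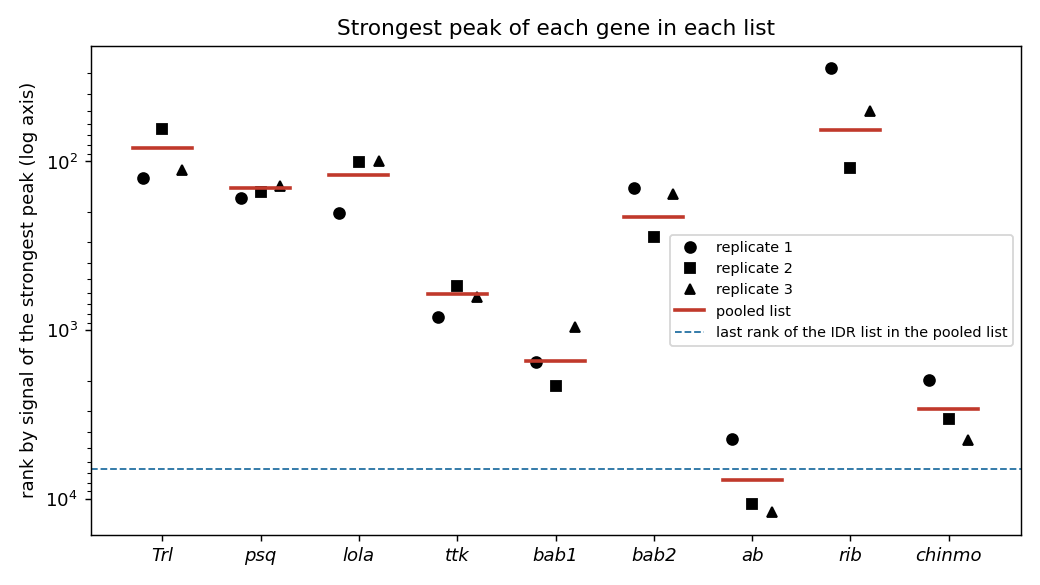
For each gene the rank by signal of its strongest peak is shown for the 3 replicates (symbols) and the pooled list (red line), on an inverted log axis, with the last IDR rank of 6659 as a dashed line. The replicates of rib, Trl, psq, lola and bab2 lie between 28 and 281, and the replicate ranks of 10657 and 11996 below the dashed line belong to ab.

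Across replicates the strongest peaks fell into a close group of 5 genes and a weaker rest. The lowest and highest replicate ranks were 28 and 109 for rib, 64 and 125 for Trl, 99 and 203 for lola, 140 and 164 for psq, and 144 and 281 for bab2. Each of these ranges overlaps the next in that order, so neighbours did not separate over the replicates. The lola range joins different sites: the strongest peak was the 3′ flank summit in replicates 1 and 2 and the intron summit in replicate 3. Within each replicate, rib and Trl both lay ahead of psq and of bab2. Ttk, between 548 and 837, overlapped with no other gene. The ranges of bab1, between 954 and 2127, chinmo, between 1966 and 4451, and ab, between 4414 and 11996, overlap at their ends, but bab1 lay ahead of chinmo and chinmo ahead of ab in all 3 replicates.

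By merged intervals per 10 kb among the strongest 6659 peaks of each replicate, psq lay above the other 8 genes. This order depends on the peaks counted: with IDR summits left unmerged Trl had 4.33 per 10 kb against 3.46 for psq, and in the whole replicate lists ttk lay ahead of psq in every replicate. Psq had 2.45 ± 0.14 intervals per 10 kb (SD, n = 3), with a lowest value of 2.31. Trl and ttk followed with means of 1.59 each, and with highest values of 2.16 and 1.90, below the lowest of psq. Trl varied most, from 0.865 in replicate 2, where its summits share a span, to 2.16 in replicate 1. Lola, between 0.980 and 1.40, overlapped with both. Rib had 0.938 in each replicate, bab1 0.491 ± 0.077 and bab2 0.427 in each, and chinmo ranged from 0.158 to 0.315 and ab from 0 to 0.166.

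**Figure D5:**
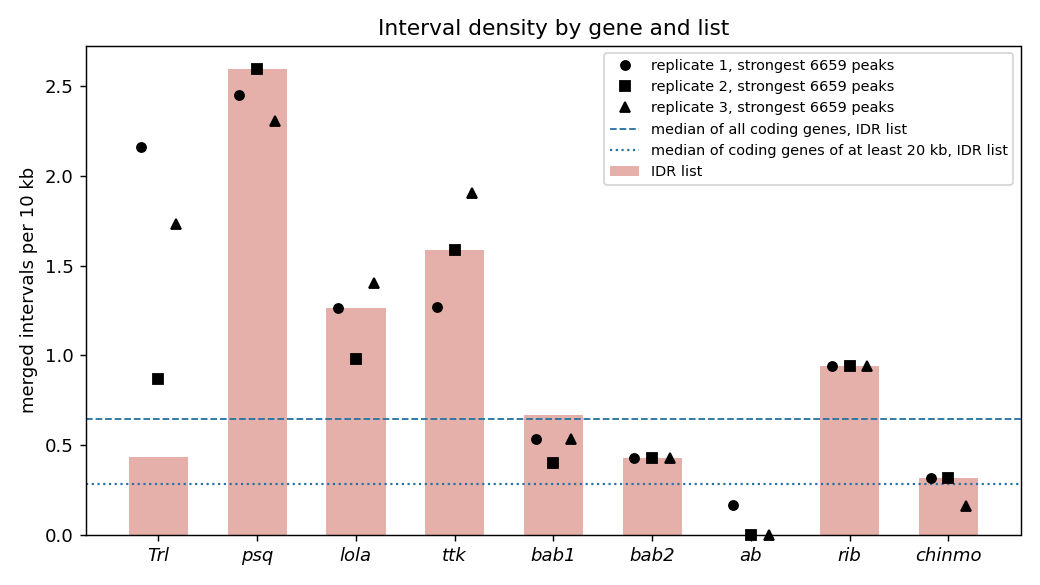
Bars give merged IDR intervals per 10 kb of gene and flanks, symbols give the same for the strongest 6659 peaks of each replicate, and the lines mark the medians of all coding genes, 0.645, and of the long ones, 0.282. All psq symbols lie above those of the other genes, and the Trl symbols lie above the Trl bar, whose single wide interval counts once.

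In the whole lists of 30000 peaks, which include background regions, the ranges of psq and lola overlapped. Psq had 33, 36 and 30 merged intervals in the 3 replicates (33.0 ± 3.0, SD, n = 3) and 34 in the pooled list. Lola had 39, 30 and 28 (32.3 ± 5.86, SD, n = 3) and 32 in the pooled list, so the lead of psq in the IDR list, 18 against 9, was not seen here. Ttk had 18, 20 and 17, which is 5.71, 6.34 and 5.39 per 10 kb, against 4.76, 5.19 and 4.32 for psq. Bab1, bab2 and chinmo had between 9 and 13 in every replicate, with overlapping ranges. Trl had 9, 5 and 8, rib 5, 11 and 4, and ab 6, 5 and 7, and these ranges overlap too. Among the strongest 6659 peaks ab had 1 interval in replicate 1 and 0 in the others.

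Of the 44 intervals, 40 were found in the strongest 10000 peaks of every replicate with an overlap of at least 50% (90.9%, exact 95% interval 78.3 to 97.5%), against 90.0% of all IDR intervals. Each replicate held 95.5%, 100% and 95.5% of them (97.0% ± 2.62, SD, n = 3). A stricter measure asked for a summit within 100 bp among the strongest 10000 peaks of every replicate. It was chosen after seeing that several summits share a span. By it the share was 33 of 44 (75.0%) against 81.3% of all IDR intervals. In the whole replicate lists, which include background regions, ttk, bab1, bab2, rib and chinmo had all their summits matched within 100 bp. Psq had 16 of 24 and lola 10 of 16. Some of these matches lay beyond the strongest 10000. Among them were replicate 1 ranks of 18067 for psq and of 12425 and 10615 for ttk. Replicate 3 ranks of 13034 for lola and 13684 for chinmo were others.

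The strongest summit of an interval lay within 250 bp of a start site in 9 of 44 cases (20.5%, exact 95% interval 9.80 to 35.3%), where the background over all IDR intervals was 50.5%. Of these, 6 were at the member's own start site and the other 3 at asRNA:CR45134, Pef and CG9205. Introns held 24 of 44 (54.5%), against 32.5% of all IDR intervals, and intergenic sequence 9 (20.5%), against 11.1%. Psq alone gave 14 of the 24 intron intervals and 18 of the 44 intervals. Some of the 24 lay in the flanks, in introns of other genes. With the 1000 strongest IDR peaks alone the promoter share was 41.7% of 12 member intervals, against 46.7% of all 898. No interval had its strongest summit in a coding exon, with an upper limit of 8.04%, where the background was 0.914% of all IDR intervals. Counted by gene, 5 of 9 members, Trl, psq, lola, ttk and rib, had a summit within 250 bp of an own start site, where the background was 24.4% of all coding genes and 34.4% of the long ones. Of the 7 long members, 3 had one. Gene length moves with these shares, since 7 of the 9 members are long, and its part in them was not tested.

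GAGAG on either strand occurred within 50 bp of the strongest summit of 16 of 44 intervals (36.4%, exact 95% interval 22.4 to 52.2%), where the background over all IDR intervals was 20.4%. In windows 300 bp to either side it occurred in 17.0% for the members and 14.8% for all. With the 1000 strongest IDR peaks alone the member share was 58.3% of 12 intervals, against 29.3% of all 898. The copies were unevenly divided among the genes. GAGAG was found at 9 of 24 psq summits, 6 of 16 lola summits, 3 of 10 Trl summits, 5 of 7 ttk summits and both rib summits, and at 0 of 5 for bab1 and 0 of 2 each for bab2 and chinmo. Psq gave 7 of the 16 intervals, lola 4, ttk 3 and rib 2. At the strongest summit of each gene, lola had 6 copies, psq 5, rib 4 and ttk 1, and Trl, bab1, bab2 and chinmo had 0. The most copies in a window were 10, at a weak psq flank summit of rank 6264, then 7 at a lola summit of rank 6648 and at a psq flank summit of rank 2897.

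The same windows were searched for 4 other words on both strands. GAGCGAG was at 8 of 44 intervals (18.2%) against 5.41% of all IDR intervals, with 2.27% and 2.37% in the flanking windows. GGGGAAA was at 7 (15.9%) against 5.90%, with 3.41% and 1.94% in the flanking windows. AACACTG was at 3 (6.82%) against 4.39%, and ATCGAT, part of the DREF and BEAF-32 sites, at 3 (6.82%) against 6.67%. A match is a run of letters and not a mapped site, and with 44 windows from 8 genes the intervals on these shares are wide. Psq and lola, which lie near each other on 2R, gave 18 and 9 of these windows.

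A list of 9 other BTB genes was set beside the members: br, fru, mod(mdg4), Cp190, ken, mamo, lov, lolal and BtbVII. Of these, 8 of 9 had an IDR summit, the same number as among the members, 3 had at least 5 intervals and 3 had a summit at an own start site. Their median density was 0.582 intervals per 10 kb, against 0.669 for the members. Fru, the sex-determination factor of courtship, had the most, with 10 intervals, mamo had 8 and mod(mdg4), an insulator protein gene, 5, while lov had none. Ken, a repressor of JAK-STAT targets, held a stronger peak than any member, with rank 34, a signal of 15726 and replicate ranks of 34, 30 and 35 (33.0 ± 2.65, SD, n = 3). Of 5 genes for partners of GAGA factor or GA-repeat binders, Clamp, E(bx) and corto had 1 interval each, and Ssrp and dre4, which encode the subunits of the FACT histone chaperone, had none.

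The members' median profile over the 5 lists, as log2 of intervals per 10 kb plus 0.1, was compared with those of 1968 coding genes whose gene and flanks reach at least 20 kb. The 5 lists come from the same 3 libraries. The nearest by Euclidean distance were scrib, a cell polarity gene, at 0.113, jing, which encodes a zinc finger protein, at 0.250, and hiw, which encodes a ubiquitin ligase, at 0.283. Their densities in the IDR list, 0.643, 0.616 and 0.632 per 10 kb, lay close to the members' 0.669, as follows from a choice by a profile that includes this density.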

How the data were processed

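ChIP-seq peak lists on dm6 (Release 6) from 3 biological replicates of 1 group were used. Per the labels, the chromatin was sonicated, with sizes given as 200 to 800 and no unit. Per the deposited lists of derived files, the authors called 30000 peaks and background regions for each replicate and for all replicates pooled, to be passed to IDR. Which aligner and caller made them is not given in the sources used here. The authors deposited a signal value for each peak, whose scaling is not stated, so it served only to rank peaks within a list. The authors also deposited a −log10 q-value for each peak, which selected nothing here. Read depth is unknown, and lists on dm3 were not used here. Each of the 6659 IDR peaks was tested to be identical to a peak among the top 6659 of the pooled list.

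The 9 genes and all gene lists were chosen with earlier results of these data known. Named were all 9 genes, other BTB genes with the most or fewest intervals, the partner list, the 3 genes nearest in profile, and genes that share a summit or start site with a strong interval. Ken, mamo, mod(mdg4), the genes that follow psq by count and the neighbours at flank summits were named after their values were seen. Overlapping peaks, by at least 1 bp, were merged into intervals, and a gene was counted with 5 kb on either side. Densities are per 10 kb of gene and flanks. Genes and start sites came from Ensembl release 115, with transposable elements left out of the start sites. Words were searched on both strands within 50 bp of each summit. Exact binomial 95% intervals (Clopper-Pearson) cover the counting of intervals only, and intervals in 1 gene share their source. No test was made, since the same peaks chose the genes. The procedures were tested on simulated data. Alternatives changed the flank, the number of peaks, merging, distance to a start site, the window and the overlap rule. They also changed the replicates in which an IDR peak had to be found. Python 3.11.15, numpy 2.4.6, scipy 1.17.1 and matplotlib 3.10.9 were used.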

Additional observations from a re-analysis of the deposited data

How the results depend on the processing

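With the 1000 strongest IDR peaks the members held 12 intervals in place of 44, with a median density of 0.432, a promoter share of 41.7% and a GAGAG share of 58.3%, and 15.0% of coding genes had a summit. Without merging, the members held 68 intervals at a median density of 0.938. With gene span alone as the denominator the median density was 0.773 for the members and 0.363 for the long genes. Flanks of 1 kb gave a summit to 39.2% of coding genes and a long-gene density of 0.235, and flanks of 10 kb gave 70.3% and 0.315. With 1 kb chinmo lost its summits, so 7 members had one, and with 10 kb ab gained one, so 9 did. Interval recovery in every replicate was 61.4% in the top 5000 peaks, 95.5% with an overlap of 1 bp and 75.0% by a summit within 100 bp, the last chosen after seeing the data. The promoter share was 13.6% within 100 bp of a start site and 34.1% within 1000 bp, and the GAGAG share was 40.9% with 100 bp on either side of the summit. To leave a replicate out, peaks of the IDR list, itself made with all 3 replicates, were kept if found in the remaining replicates. With each left out in turn, 55.8 to 56.3% of coding genes had a summit and the members held 40 to 42 intervals. Recovery in the remaining replicates was 90.9 to 95.5%. This filter can only remove peaks, and recovery cannot fall when fewer replicates are required. The replicate left out still shaped the list, so these values do not show how stable the results are without it. At least 5 intervals were found for 4 members as reported, 2 with 1 kb flanks, 0 among the 1000 strongest peaks, 5 without merging and 3 to 4 with a replicate left out. Psq remained first by intervals in the settings tried, except among the 1000 strongest peaks. It was level with 1 other gene at 1 kb and in the strongest 6659 peaks of replicate 1. Most of these settings reuse the list by which the genes were chosen. The IDR threshold was set by the authors and the depth behind it is unknown, so a gene without an IDR summit may still be bound below that threshold. No paired analysis was possible because the study holds 1 group.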
